A study of Rattus norvegicus with 4 samples.

Results

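Cd34 and 8 further genes that mark stromal and progenitor-like fibroblasts of the synovium and other connective tissue were followed across 4 rat cartilage libraries. The genes were taken by symbol, with case ignored, from a table of 24005 genes: Cd34, Thy1, Pdgfra, Pi16, Dpp4, Clec3b, Cd55, Pdpn and Tcf21. All 9 had a row, 8 passed the filter on low counts and were tested, and Tcf21 had no count in any library. The libraries were made from polyA RNA of cartilage from male Sprague Dawley rats between 8 and 12 weeks old and of 140 to 230 g. The control group (n = 2) carries the labels healthy and control treatment. The osteoarthritis group (n = 2) carries the label osteoarthritis together with the treatment label XGS, which stands for the herbal preparation Xiaogu San. Neither label occurs without the other, so disease and treatment cannot be told apart. The series title gives monosodium iodoacetate, a glycolysis inhibitor, as the agent that induced the disease. The design text calls the normal animals mice, whereas the labels of all 4 libraries say rat.

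The synovium that borders a joint has a thin lining of fibroblasts and macrophages and, beneath it, a looser sublining with vessels. Sublining fibroblasts are known by Thy1, and a subset of synovial fibroblasts by Cd34, whereas lining fibroblasts carry Cd55 and much Pdpn. Pi16, Dpp4 and Clec3b mark a fibroblast state found around vessels and in fascia of many organs, often described as a progenitor reservoir, and Pdgfra is a receptor common to most fibroblasts. None of the 9 is restricted to fibroblasts: Cd34 is also a protein of endothelium and blood progenitors, Thy1 of lymphocytes, neurons and early marrow cells, Dpp4 of T cells, and Pdpn of lymphatic endothelium and osteocytes. Healthy articular cartilage itself has neither vessels nor a synovial lining. In bulk tissue, fewer cells of a type and less RNA per cell cannot be told apart.

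Depth was 24492412 to 28270779 counts per library. Genes with any count numbered 14770 and 15739 in the controls and 19272 and 17725 in osteoarthritis 1 and 2. As a check of the cartilage label, 5 of 10 chondrocyte markers lay below both controls and 0 above (all genes: 26.5% and 30.0%). Their summed level was 4132.5 and 10379 CPM in osteoarthritis 1 and 2 against 24066 and 35133 CPM in the controls, of which Col2a1, the main cartilage collagen, made up 13909 and 26794 CPM. Acan, aggrecan, had 492 and 587 CPM in the controls, 70.8 CPM in osteoarthritis 1 and 2701 CPM in osteoarthritis 2. CPM are counts scaled to a common library size, here with TMM factors (trimmed mean of M values). The osteoarthritis libraries also differed from each other. The 8 adipocyte markers summed to 8685 CPM in osteoarthritis 1 and 116 CPM in osteoarthritis 2, with 1610 and 655 CPM in the controls. The 7 tendon and ligament markers summed to 466 and 7575 CPM in the same order, with 2532 and 2514 CPM in the controls. Because osteoarthritis 1 and osteoarthritis 2 stand apart in this way, each member's result is also given without each of them. The labels do not say whether the libraries came from separate animals, so p-values cover only sample-to-sample spread, part of which may be technical.

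The 8 detected genes had no common direction. Cd34 and Thy1 lay above both controls in both osteoarthritis libraries, and Pi16 and Dpp4 lay below both. Pdgfra and Cd55 each had 1 osteoarthritis library between the controls, and Clec3b and Pdpn had 1 above and 1 below them. Among all 15282 genes tested, 30.0% lay above both controls and 26.5% below both, so 2 of 8 in each direction is a share near the background. The median log2 fold change, osteoarthritis over control, was 0.60 for the 8 genes and 0.15 for all genes tested. The members' median was -0.16 without osteoarthritis 2. At a Benjamini-Hochberg adjusted p of 0.05 over all genes, the quasi-likelihood test of edgeR called no member and no other gene (0 of 15282, 0%). At an unadjusted p under 0.05 that test had 1 member higher, Cd34, and 1 lower, Dpp4, against 12.2% of all genes higher and 11.2% lower. DESeq2 called the same 2 genes in the same directions, against a background of 7.24% higher and 8.26% lower.

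**Figure D1:**
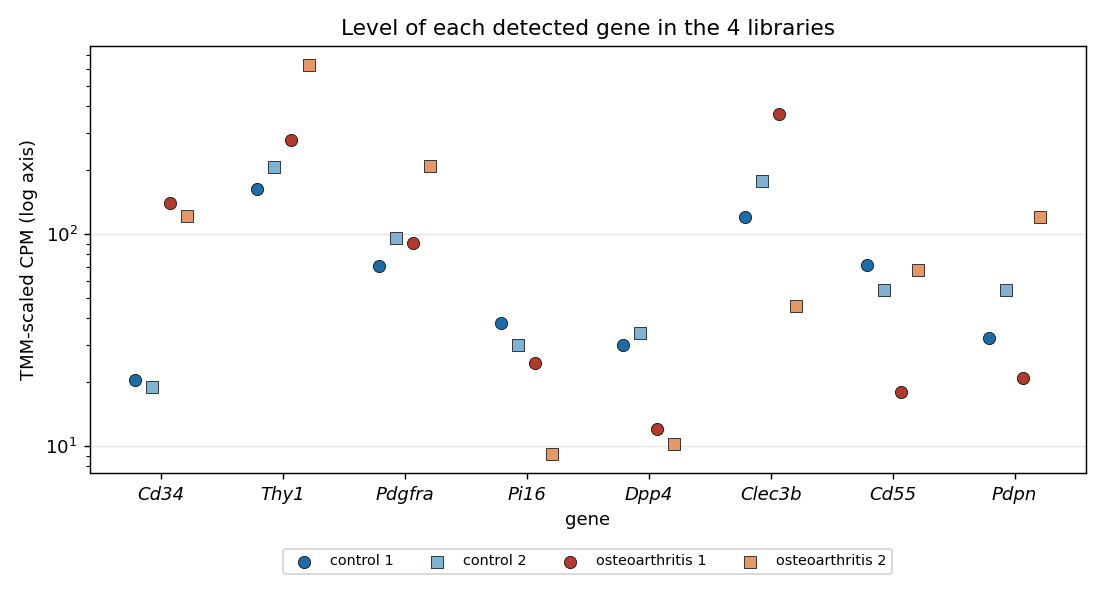
TMM-scaled CPM (log axis) of the 8 detected genes; each point is 1 library, circles and squares are replicates 1 and 2, blue is control and red or orange is osteoarthritis. Only Cd34 has osteoarthritis points far above both controls and close to each other (140 and 121 against 20.5 and 19.1 CPM), while the 2 osteoarthritis points of Clec3b, Pdpn and Cd55 lie on different sides of at least 1 control.

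The promoter windows of 2 members are shown because Cd34 and Dpp4 are the 2 members with an unadjusted p under 0.05, in opposite directions. Each is the 250 bases before the annotated start, read on the strand of the gene from RefSeq's table for the rat assembly GRCr8, in which 7 of the 9 genes had an entry. Cd34 lies at chr13:109008536-109008785 on the plus strand and Dpp4 at chr3:67452423-67452672 on the minus strand. Capitals mark the single GC box (GGGCGG) of the Cd34 window and the single CCAAT box of the Dpp4 window.
Cd34: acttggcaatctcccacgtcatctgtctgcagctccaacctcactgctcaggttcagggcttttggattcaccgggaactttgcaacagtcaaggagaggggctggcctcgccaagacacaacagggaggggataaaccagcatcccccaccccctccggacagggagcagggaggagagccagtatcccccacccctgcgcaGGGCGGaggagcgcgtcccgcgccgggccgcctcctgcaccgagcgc
Dpp4: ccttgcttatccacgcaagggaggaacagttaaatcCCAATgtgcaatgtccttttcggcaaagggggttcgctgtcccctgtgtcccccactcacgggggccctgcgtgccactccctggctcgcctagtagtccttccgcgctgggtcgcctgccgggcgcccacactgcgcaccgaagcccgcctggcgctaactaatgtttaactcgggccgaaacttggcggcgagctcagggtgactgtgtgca
Motifs were searched on both strands. The GC box begins 47 bases before the Cd34 start, and 30.5% of the 33469 windows of that length hold one. The Cd55 and Pdpn windows each held 3. The CCAAT box begins 214 bases before the Dpp4 start, and 34.0% of windows hold one. Neither window held TATAAA, which 12.9% of windows hold, or CAGCTG, a form of the E-box CANNTG bound by factors of the Tcf21 class, which 12.0% hold. Of the 7 windows, that of Cd55 held CAGCTG, 128 bases before its start. Another form of CANNTG, not capitalised here, begins 231 bases before the Cd34 start. The Dpp4 window held no CANNTG, which 65.5% of windows hold. Both shown windows are rich in G and C, at 64.8% for Cd34 and 62.4% for Dpp4 against a median of 51.2%. These matches describe letters and show no binding.

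Cd34 encodes a heavily glycosylated sialomucin of the cell surface. It had 584 and 497 counts in the controls and 4127 and 2811 counts in osteoarthritis 1 and 2, which is 20.5 and 19.1 CPM against 140 and 121 CPM. The osteoarthritis libraries were both high and close together, and no value overlapped. The level was 19.8 ± 1.05 CPM in the controls against 131 ± 13.1 CPM in the osteoarthritis libraries (SD, n = 2 each), a 6.60-fold difference. The log2 fold change was 2.72 ± 0.32 (SE, edgeR adjusted p = 0.0824), and the gene ranked 31 of 15282 by unadjusted p. The size ran between 2.58 and 2.85 under all 14 alternatives, while the call depended on the method. Adjusted p was 3.66e-10 in DESeq2, 3.80e-06 in edgeR's likelihood ratio test and 0.0014 in the quasi-likelihood test without a count filter. Without osteoarthritis 1 or without osteoarthritis 2 it was 8.84e-04 and 4.00e-05 in the quasi-likelihood test, where the lone library is assumed to vary like the controls. Without control 1 or control 2 it was 0.269 and 0.317, where the lone control is assumed to vary like the osteoarthritis libraries.

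Cells of other kinds carry Cd34 too, and their markers were read beside it. Of 16 tested genes of blood vessel endothelium, 6 lay above both controls and 0 below, where 30.0% and 26.5% of all genes did, with a median log2 fold change of 0.70. Against the control mean the endothelial median was 1.11 in osteoarthritis 1 and -0.08 in osteoarthritis 2, whereas Cd34 itself was at 2.79 and 2.59. Pecam1, a defining adhesion protein of endothelium, had 175 and 80.6 CPM in the controls against 493 and 197 CPM in the osteoarthritis libraries, above both controls. Cdh5, the junctional cadherin, had 45.4 and 11.3 against 106 and 92.8 CPM, also above both. The other 10 did not lie above both. Kdr, the main growth factor receptor of vessels, had a log2 fold change of 0.01. Plvap, Egfl7, Cldn5 and Sox18, further vessel genes, were at -0.20, -0.21, -0.21 and -0.14. These signs depended on the scaling: 12 of the 16 were positive with TMM factors, 11 with upper quartile factors and 16 with library size alone. With library size alone the median was 0.88 and 5 lay above both controls. Erg, an endothelial transcription factor, had 43.8 and 29.4 CPM in the controls against 83.9 and 116 CPM in the osteoarthritis libraries, at a log2 fold change of 1.45 ± 0.37. Flt1, a decoy-like receptor of the same growth factor, and Ptprb, a phosphatase of vessels, had log2 fold changes of 1.46 ± 0.45 and 1.95 ± 0.72. By edgeR's adjusted test 0 of the 16 were called, at an unadjusted p under 0.05 there were 4 higher and 0 lower, and DESeq2 called 3 higher and 0 lower. The summed endothelial level was 2411 and 1116 CPM in the controls against 3421 and 1820 CPM in the osteoarthritis libraries, with overlap, and Robo4 had at most 1.48 CPM in any library. Of 10 tested genes of blood stem and progenitor cells, 4 lay above and 3 below both controls, against the same 30.0% and 26.5%. Spn, a sialomucin of blood cells, had a log2 fold change of -2.58 ± 0.35, and Hlf, a transcription factor, was at 3.97 ± 0.63. The summed progenitor level was 198 to 219 CPM in the controls against 170 to 204 CPM in the osteoarthritis libraries, and Hoxa9 was at or near 0. The part of these cells in the Cd34 difference was not tested.

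By likeness over the 4 libraries, measured as the root mean square difference of centred log2(CPM + 0.5), the nearest genes to Cd34 among 11361 compared were Runx1t1 (0.068), Itm2a (0.074), Cacna1c (0.10), Rbms3 (0.11) and Zc3h13 (0.12). Itm2a, a membrane protein gene, had 43.9 and 46.8 CPM in the controls against 311 and 265 CPM in the osteoarthritis libraries. Runx1t1, a transcriptional corepressor, stood lower throughout, at 3.10 and 3.18 against 24.5 and 23.0 CPM. Their log2 fold changes ran from 2.55 for Zc3h13 to 2.92 for Runx1t1. Each other member had a different nearest gene, such as Ski for Thy1, Kdm5c for Pdgfra and Prelp, a cartilage matrix protein gene, for Cd55. Among the other members the nearest to Cd34 was Thy1, at 0.91, and 2281 genes were nearer.

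Thy1, a small glycolipid-anchored surface protein, is the classical sign of sublining fibroblasts. It had 162 and 206 CPM in the controls against 276 and 624 CPM in the osteoarthritis libraries. Both osteoarthritis libraries were above both controls, and osteoarthritis 2 was 2.26 times as high as osteoarthritis 1. The means were 184 ± 30.7 and 450 ± 246 CPM (SD, n = 2 each), with a log2 fold change of 1.29 ± 0.52 (SE; edgeR adjusted p = 0.221; DESeq2 adjusted p = 0.0894). Without osteoarthritis 2 it was 0.60, and without osteoarthritis 1 it was 1.72 with an edgeR adjusted p of 0.0136.

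Pdgfra is the alpha receptor for platelet-derived growth factors. It had 70.3 and 95.3 CPM in control, 90.9 CPM in osteoarthritis 1 and 210 CPM in osteoarthritis 2. Osteoarthritis 1 lay between the controls and osteoarthritis 2 above them. The log2 fold change was 0.86 ± 0.50 (edgeR adjusted p = 0.357), and it was 0.15 without osteoarthritis 2 and 1.30 without osteoarthritis 1 (edgeR adjusted p = 0.0490). Thy1 and Pdgfra were the most alike pair of members, at a root mean square difference of 0.22, and 226 genes were nearer to Thy1. Their ratio within a library, taken from FPKM (counts divided by gene length and library total) and so free of library scaling, was 9.24 and 8.65 in control and 12.2 and 11.9 in osteoarthritis. The ratio of Cd34 to Pdgfra was 1.47 and 1.01 in control, 7.76 in osteoarthritis 1 and 2.91 in osteoarthritis 2, higher in both osteoarthritis libraries than in either control. Tendon markers were high in osteoarthritis 2, where both Thy1 and Pdgfra were highest, and their part was not tested.

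Of the 14 further stromal surface markers, 5 lay above and 2 below both controls, where 30.0% and 26.5% of all genes did, with a median log2 fold change of 0.61. Alcam, an adhesion molecule of mesenchymal cells, had 2.67 and 6.94 CPM in the controls against 24.03 and 25.1 CPM in the osteoarthritis libraries (log2 fold change 2.35 ± 0.60). Pdgfrb, the beta receptor of the family and a protein of pericytes, had 220 and 185 against 423 and 657 CPM (1.42 ± 0.43). Mcam, also of vessel walls, had 97.7 and 51.3 against 429 and 182 CPM (2.03 ± 0.59). Vcam1 and Lepr, which lay below both controls, were at -1.53 ± 0.68 and -1.06 ± 0.72. In this list edgeR's adjusted test called 0, at an unadjusted p under 0.05 there were 4 higher and 0 lower, and DESeq2 called 4 higher and 0 lower. All 10 tested pericyte and smooth muscle genes had a positive log2 fold change (9 of 10 with upper quartile factors). Abcc9 was at 1.87 ± 0.40, Notch3 at 1.32 ± 0.38 and Rgs5 at 1.77 ± 0.59. Of the 10, 4 lay above and 0 below both controls, against 30.0% and 26.5% of all genes. Summed, the 10 had 751 to 1824 CPM in the controls against 2107 to 3735 CPM in the osteoarthritis libraries. EdgeR's adjusted test called 0 of the 10, with 3 higher at an unadjusted p under 0.05 and 3 higher in DESeq2. The part of vessel wall cells in the levels of Thy1, Pdgfra and Pdgfrb was not tested.

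Pi16, Dpp4 and Clec3b, are the genes of the perivascular and fascial progenitor state. Pi16 and Dpp4 lay below both controls, and Clec3b lay on both sides of them. Pi16 encodes a secreted peptidase inhibitor-like protein and had 38.0 and 30.1 CPM in control, 24.6 CPM in osteoarthritis 1 and 9.20 CPM in osteoarthritis 2. Both osteoarthritis libraries were below both controls, osteoarthritis 2 by more. The log2 fold change was -1.01 ± 0.55 (edgeR adjusted p = 0.329), and it was -0.46 without osteoarthritis 2 and -1.91 without osteoarthritis 1 (edgeR adjusted p = 0.0267). When libraries were scaled by their totals alone, Pi16 no longer lay below both controls and Pdgfra lay above both.

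Dpp4, a membrane peptidase that trims chemokines and incretin hormones, had 29.8 and 34.3 CPM in the controls against 12.0 and 10.2 CPM in the osteoarthritis libraries. The groups were apart and each was tight, at 32.0 ± 3.14 and 11.1 ± 1.28 CPM (SD, n = 2 each). The control level was 2.89 times the osteoarthritis level, a log2 fold change of -1.53 ± 0.36 (SE; edgeR adjusted p = 0.114). DESeq2 gave an adjusted p of 0.0122 and edgeR's likelihood ratio test 0.0304, and without osteoarthritis 1 the quasi-likelihood test gave 0.0466 and without osteoarthritis 2 it gave 0.0975. The gene nearest to Dpp4 over the 4 libraries was Sod3, extracellular superoxide dismutase, with 505 and 598 CPM in the controls against 214 and 184 CPM in the osteoarthritis libraries (root mean square difference 0.020). Markers of T and NK lymphocytes, cells that can also carry Dpp4, were mostly lower in the same libraries. Of 7 tested, 5 lay below and 0 above both controls, against 26.5% and 30.0% of all genes. The marker sum was 119 to 223 CPM in the controls against 17.9 to 24.5 CPM in the osteoarthritis libraries. Most of the control sum was Nkg7, a granule gene of cytotoxic cells. It had 86.5 and 184 CPM in the controls against 4.95 and 6.56 CPM (log2 fold change -4.55 ± 0.53). Cd3g, of the T cell receptor complex, was at -2.52 and Lck, a T cell kinase, at -1.31. Cd3e, at 3.59 and 4.33 CPM in the controls against 2.64 and 2.98 CPM, was at -0.49. Of the 7, 6 had a negative log2 fold change and 1 a positive one, Cd8a at 0.62. EdgeR's adjusted test called 0 of the 7, with 0 higher and 2 lower at an unadjusted p under 0.05 and in DESeq2. The part of lymphocytes in the Dpp4 difference was not tested.

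Clec3b encodes tetranectin, a secreted lectin that binds plasminogen. It had 121 and 177 CPM in control, 370 CPM in osteoarthritis 1 and 45.6 CPM in osteoarthritis 2. The osteoarthritis libraries lay on opposite sides of the controls, and osteoarthritis 1 was 8.11 times as high as osteoarthritis 2. No direction can be given: the log2 fold change was 0.48 ± 0.93 (edgeR adjusted p = 0.811), 1.32 without osteoarthritis 2 (adjusted p = 0.0423) and -1.75 without osteoarthritis 1 (adjusted p = 0.0245), and it was below 0 in limma-voom and on log2 FPKM. Adipocyte genes had the same order in osteoarthritis. All 8 were highest in osteoarthritis 1, and Lpl, lipoprotein lipase, had 138 and 32.4 CPM in control, 1201 CPM in osteoarthritis 1 and 78.4 CPM in osteoarthritis 2. Pparg, the regulator of fat cell formation, had 18.4 and 4.06 CPM in control against 167 and 6.18 CPM, and Lep, the hormone leptin, was at 0 in control 1, at 98.8 CPM in osteoarthritis 1 and at 0.26 CPM in osteoarthritis 2. None of the 8 adipocyte genes was called by edgeR's adjusted test, at an unadjusted p under 0.05 or by DESeq2 (0 in each case). The part of fat tissue in the Clec3b and Pi16 levels was not tested.

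Within a library, the 3 genes kept no fixed proportion. The FPKM ratio of Clec3b to Pi16 was 2.94 and 5.46 in control, 13.9 in osteoarthritis 1 and 4.59 in osteoarthritis 2. That of Pi16 to Dpp4 was 2.89 and 1.99 in control, 4.65 in osteoarthritis 1 and 2.05 in osteoarthritis 2. Against Pdgfra, Dpp4 stood at 0.578 and 0.490 in control and at 0.180 and 0.066 in osteoarthritis, lower in both. The Cd34 to Pi16 ratio was 0.883 and 1.03 in control against 9.29 and 21.5 in osteoarthritis. Cd34 and Dpp4 were the most unlike pair of members, at a root mean square difference of 2.09.

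**Figure D2:**
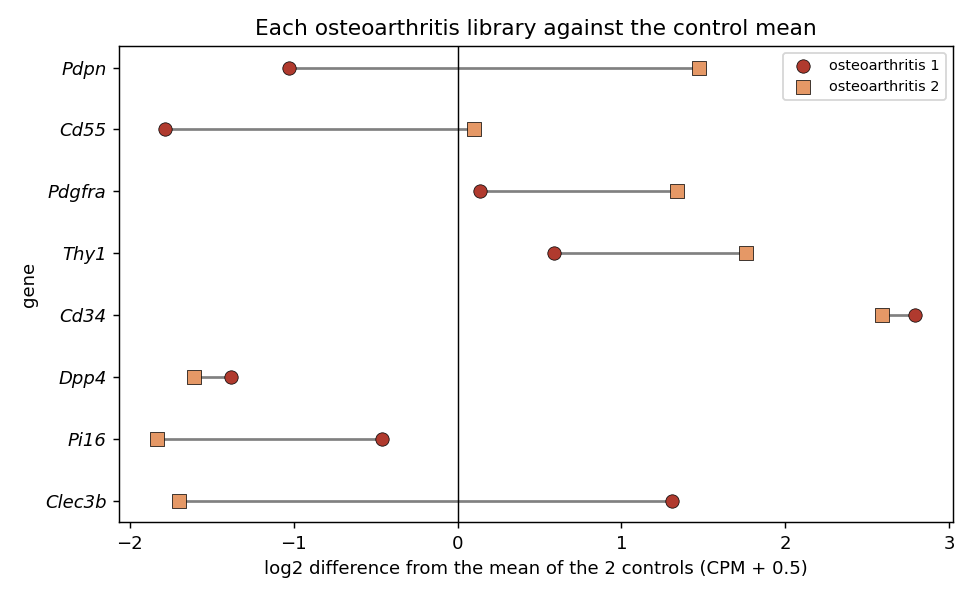
Log2 difference of each osteoarthritis library from the mean of the 2 controls (CPM + 0.5) for the 8 detected genes, ordered by the gap between the libraries; circles are osteoarthritis 1 and squares osteoarthritis 2. Cd34 (2.79 and 2.59) and Dpp4 (-1.38 and -1.61) have short bars, Pdpn and Clec3b cross 0 in opposite senses, and the bar of Cd55 ends near 0 on the right.

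Cd55 and Pdpn, the lining markers, were low in osteoarthritis 1 and higher in osteoarthritis 2. Cd55, decay-accelerating factor, protects cells from complement. It had 71.4 and 54.4 CPM in control, 17.9 CPM in osteoarthritis 1 and 67.4 CPM in osteoarthritis 2. Osteoarthritis 2 lay between the controls. The log2 fold change was -0.56 ± 0.65 (edgeR adjusted p = 0.656), -1.80 without osteoarthritis 2 (adjusted p = 0.0109) and 0.07 without osteoarthritis 1 (adjusted p = 0.95).

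Pdpn, podoplanin, is a mucin-type protein that engages the platelet receptor Clec1b. It had 32.2 and 54.2 CPM in control, 20.9 CPM in osteoarthritis 1 and 121 CPM in osteoarthritis 2, a 5.78-fold gap between the osteoarthritis libraries. Osteoarthritis 1 lay below both controls and osteoarthritis 2 above both. The log2 fold change was 0.71 ± 0.82 (edgeR adjusted p = 0.656), 1.44 without osteoarthritis 1 (adjusted p = 0.0393) and -1.04 without osteoarthritis 2 (adjusted p = 0.196). Osteocyte and late osteoblast markers, whose cells also make Pdpn, had other levels. Their sum was 771 and 4012 CPM in the controls against 40.2 and 44.7 CPM in the osteoarthritis libraries. Of 6 tested, 5 lay below and 0 above both controls, against 26.5% and 30.0% of all genes. The osteocalcin gene Bglap stood at 520 and 2912 CPM in the controls and at 0.847 and 0.259 CPM in the osteoarthritis libraries. Mepe and Dmp1, matrix proteins of osteocytes, had log2 fold changes of -6.45 ± 1.04 and -4.63 ± 0.82. Of these 6, edgeR's adjusted test called 0, with 5 lower at an unadjusted p under 0.05 and in DESeq2. Lymphatic markers overlapped in sum, at 89.6 to 149 CPM in the controls against 144 to 187 CPM in the osteoarthritis libraries. Of 6 tested, 3 lay above and 0 below both controls, against 30.0% and 26.5% of all genes. Ccl21, the lymphatic chemokine, had 2.46 and 2.22 CPM in the controls against 57.2 and 46.2 CPM in the osteoarthritis libraries (log2 fold change 4.46 ± 0.38). Near-identical gene copies, where present, would make the Ccl21 count uncertain, which was not tested. Flt4, a lymphatic growth factor receptor, was at 1.38 and Mmrn1 at -0.88. Of these 6, edgeR's adjusted test called 0, 3 were higher at an unadjusted p under 0.05 and DESeq2 called 2 higher. The part of lymphatic vessels or osteocytes in the Pdpn level was not tested.

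Further lining fibroblast genes were split as well, with a median log2 fold change of 0.03 that was -0.05 with library size alone and -0.10 with upper quartile factors. Of 13 tested, 2 lay above and 5 below both controls, against 30.0% and 26.5% of all genes. The list's median against the control mean was -1.28 in osteoarthritis 1 and 0.57 in osteoarthritis 2. Prg4, lubricin, which cartilage surface cells also make, had 3033 and 1212 CPM in the controls against 23.9 and 146 CPM in the osteoarthritis libraries, at a log2 fold change of -4.65 ± 1.11 (SE; edgeR adjusted p = 0.115). Has2, a hyaluronan synthase, had 7.91 and 9.35 against 21.6 and 36.5 CPM (1.75 ± 0.45), and Tppp3 had 310 and 394 against 53.5 and 159 CPM (-1.73 ± 0.60). In this list edgeR's adjusted test called 0, at an unadjusted p under 0.05 there were 1 higher and 3 lower, and DESeq2 called 1 higher and 3 lower. Tendon and ligament genes had the order of Pdpn and Cd55 in the osteoarthritis libraries. Tnmd, tenomodulin, had 10.8 and 7.40 CPM in control, 23.6 CPM in osteoarthritis 1 and 380 CPM in osteoarthritis 2, and Thbs4 had 378 and 325 CPM, 59.7 CPM and 3716 CPM. Egr1, an early response factor also used by tendon, had the opposite order, at 114 CPM in osteoarthritis 1 and 57.5 CPM in osteoarthritis 2. Of the 7 tendon genes, 1 lay above and 0 below both controls, against 30.0% and 26.5% of all genes. EdgeR's adjusted test called 0 of the 7, and 1 was higher at an unadjusted p under 0.05 and in DESeq2. The part of tendon or ligament in the levels of Pdpn and Cd55 was not tested.

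Tcf21, a basic helix-loop-helix transcription factor of fibroblast progenitors in several organs, was listed at 0 counts in all 4 libraries and is among the 3809 of 24005 genes at 0 throughout. A count of 0 allows up to 3 counts, which is 0.102 to 0.130 CPM depending on the library, and covers counting error only. Neither the annotation nor the counting method is known, so a 0 here may also reflect how the gene was annotated or counted, which was not tested. Among the other fibroblast genes, Mfap4 had 0 in 3 libraries and 0.26 CPM in osteoarthritis 2, and Cd248, endosialin, had at most 0.64 CPM in any library.

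Other transcription factors of limb and connective tissue mesenchyme were mostly above the controls. Of 16 tested, 12 lay above both controls and 0 below, where the background is 30.0% and 26.5%, and the median log2 fold change was 1.39 against 0.15 for all genes. Across the 4 scalings 11 or 12 lay above both and 0 below. The list was chosen with earlier results of these data known, so these shares only describe it. The median against the control mean was 1.22 in osteoarthritis 1 and 1.11 in osteoarthritis 2, as medians over genes that differed between the libraries in both directions. Tcf4, an E protein that partners tissue-specific helix-loop-helix factors, had 19.4 and 28.5 CPM in the controls against 168 and 131 CPM in the osteoarthritis libraries (log2 fold change 2.64 ± 0.38). Prrx1, a homeobox factor of limb mesenchyme, had 26.1 and 27.1 against 83.9 and 199 CPM (2.41 ± 0.50). Ebf1, a factor of fat, stromal and B lineage cells, had 126 and 106 against 678 and 273 CPM (2.03 ± 0.56). By edgeR's adjusted test 0 of the 16 were called, at an unadjusted p under 0.05 there were 9 higher and 0 lower, and DESeq2 called 8 higher and 0 lower. The summed level of the list was 656 and 516 CPM in the controls against 1825 and 1569 CPM in the osteoarthritis libraries.

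Companion genes of the universal fibroblast state were read next. Of 18 tested, 4 lay above and 2 below both controls, against 30.0% and 26.5% of all genes, with a median log2 fold change of -0.03 that was 0.13 with library size alone. Fbln2, fibulin 2 of elastic fibres, had 71.8 and 60.0 CPM in the controls against 302 and 315 CPM in the osteoarthritis libraries (2.23 ± 0.35). Mfap5, a microfibril protein, had 17.4 and 39.2 against 117 and 211 CPM (2.53 ± 0.56). Sema3c, a secreted semaphorin, had 23.9 and 19.6 against 57.5 and 140 CPM (2.18 ± 0.51). Has1 and Fbln1, which lay below both controls, were at -1.81 ± 0.65 and -1.44 ± 0.79. Of the 18, 9 had a positive and 9 a negative log2 fold change. EdgeR's adjusted test called 0 of the 18, at an unadjusted p under 0.05 there were 3 higher and 1 lower, and DESeq2 called 3 higher and 0 lower.

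**Figure D3:**
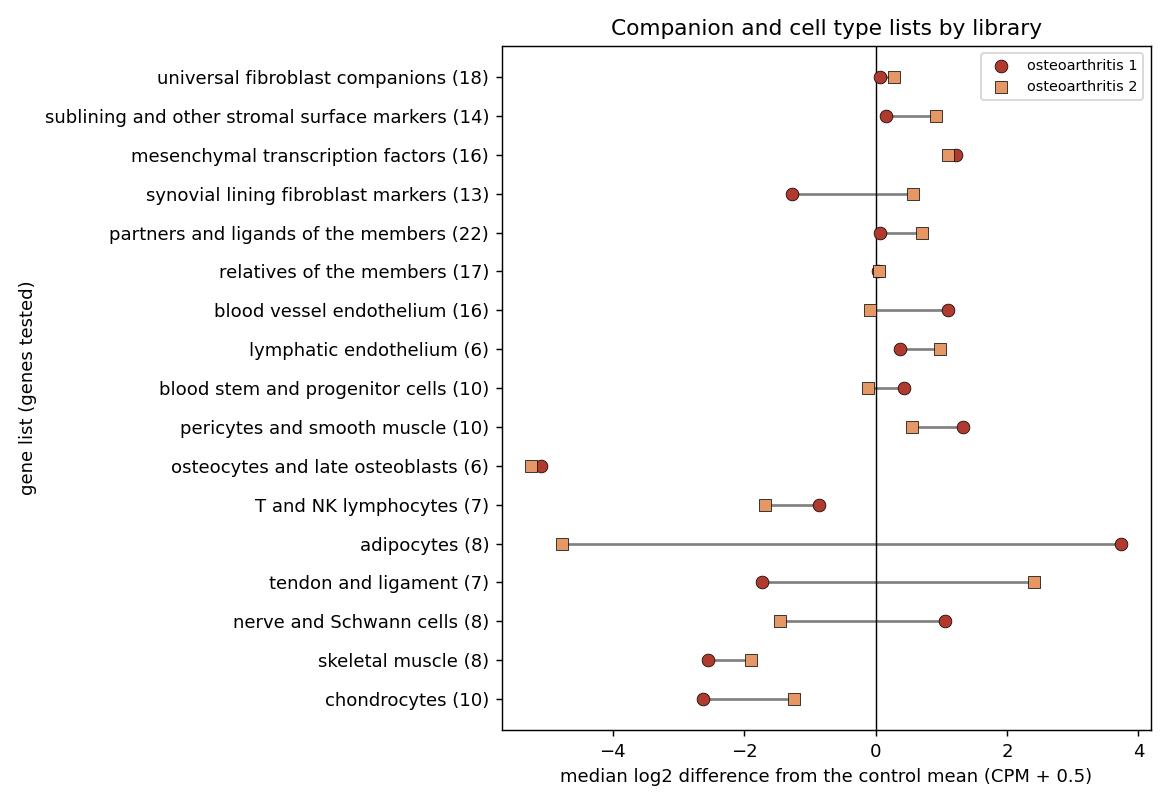
Median log2 difference from the control mean (CPM + 0.5) for each gene list in osteoarthritis 1 (circles) and osteoarthritis 2 (squares), with the number of genes tested in brackets. The mesenchymal transcription factors have both points near 1 (1.22 and 1.11), whereas the adipocyte (3.74 and -4.78) and tendon (-1.74 and 2.42) points lie on opposite sides of 0.

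Compared per gene length by FPKM, Thy1 was the highest of the 9 in every library, at 99.1 and 115 FPKM in control and 201 and 336 FPKM in osteoarthritis. Cd34 had 15.8 and 13.4 FPKM in control, close to Pi16 at 17.9 and 12.9 and to Pdgfra at 10.7 and 13.3, where Cd34 overlapped Pi16 and lay just above Pdgfra. In both osteoarthritis libraries Cd34 was behind Thy1 and 1 other member, at 128 and 82.4 FPKM, and in osteoarthritis 2 it did not differ from Pdpn at 83.2 FPKM by more than the spread between replicates. Clec3b was the second highest in both controls, at 52.7 and 70.7 FPKM, and in osteoarthritis 1, at 193 FPKM, but stood below Pdgfra in osteoarthritis 2, at 17.6 against 28.3 FPKM. Cd55 and Pdpn followed in control, at 44.8 and 31.2 FPKM and 25.2 and 38.7 FPKM, and overlapped each other. Dpp4 was the lowest of the 8 detected genes in every library, from 6.51 FPKM in control 2 down to 1.87 FPKM in osteoarthritis 2. Among all 24005 genes by FPKM, Cd34 stood at the 82.6 and 82.0 percentile in control and at the 97.9 and 97.1 percentile in osteoarthritis.

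**Figure D4:**
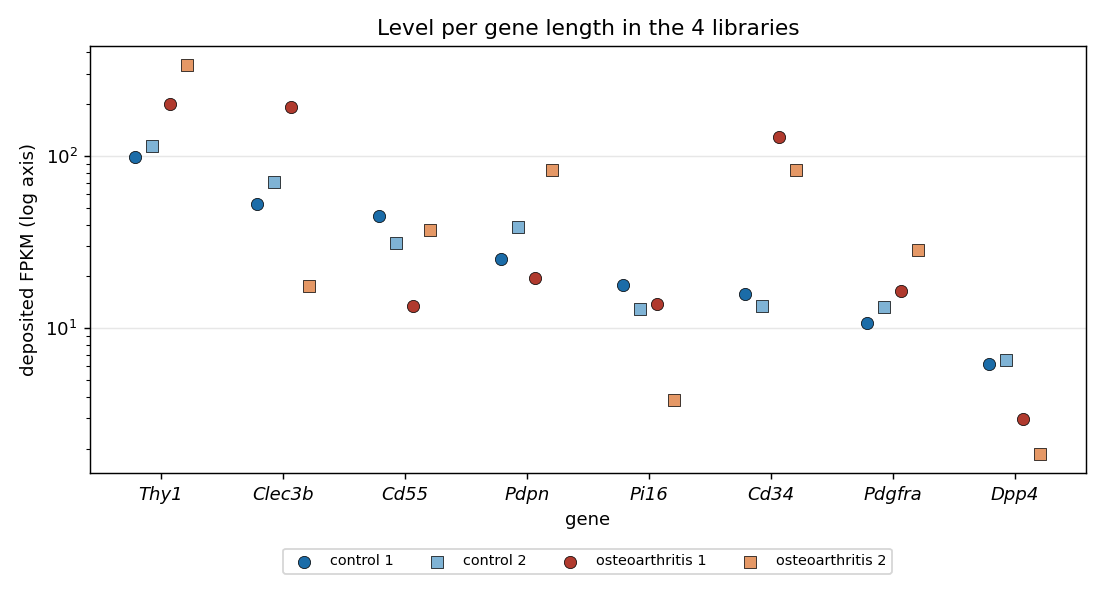
Deposited FPKM (log axis) of the 8 detected genes, ordered by their control mean, with 1 point per library in the same colours and shapes as the plot of CPM. Thy1 is highest and Dpp4 lowest in each library, and Cd34 reaches 128 and 82.4 FPKM in osteoarthritis.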

How the data were processed

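PolyA RNA of 4 rat cartilage samples was sequenced, 2 labelled healthy and 2 labelled osteoarthritis. The submitters' processing notes name fastp, TopHat and the human build hg38, without versions, although the symbols are rat symbols. Counter, annotation and strandedness: not given in the sources used here. Overlapping genes may therefore share reads. The authors deposited raw read counts per gene and FPKM values. Each of the 67506 deposited FPKM values above 0 matched count divided by gene length and column total within a relative difference of 1e-08. Gene length was inferred from the same counts and FPKM values, so a gene with counts in a single library matched by construction. FPKM is therefore no second measurement.

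The main test was run in edgeR 4.0.16 (R 4.3.3): filterByExpr (15282 genes kept), TMM scaling, quasi-likelihood F test of osteoarthritis against control, two-sided, Benjamini-Hochberg threshold 0.05. Standard errors are the log2 fold change divided by the root of F. The scripts were tested on simulated data. DESeq2 1.42.0, limma-voom (limma 3.58.1), the likelihood ratio test, other scalings and filters, log2 FPKM with pseudocounts of 1 and 0.1, and leaving out each library were alternatives; other scalings of the gene lists were added after seeing the data. An exact permutation test of 2 against 2 has 0.333 as its smallest p and was not used. Of 208 list entries, 204 were found by symbol. Genes named from a list are the at most 3 with the smallest unadjusted p and, in the group with the higher mean, 5 CPM or more (1 of them is not reported here); Pecam1, Cdh5, Kdr, Plvap, Egfl7, Cldn5, Sox18, Acan, Col11a1, Sox9, Robo4, Hoxa9, Mfap4 and Cd248 were named in addition after their values were seen, and the nearest genes were taken by the root mean square measure. The members and lists were chosen with earlier results of these data known. Figures used matplotlib 3.10.9.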

Additional observations from a re-analysis of the deposited data

How the results depend on the processing

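The number of genes called moved with the method. The quasi-likelihood test called 0 higher and 0 lower, as it did with each other scaling, with 1 CPM in 2 libraries as the filter, in limma-voom and on log2 FPKM. DESeq2 called 1107 higher and 1262 lower, the likelihood ratio test 965 and 978, and the quasi-likelihood test without a filter 677 and 751. Leaving out 1 library in turn gave 0 to 1297 higher and 0 to 1105 lower, with calls only when an osteoarthritis library was left out. The members above both controls numbered 2 to 4 and those below both 2 to 4 in the same fits, and 1 lay below both with library size alone or on FPKM. The median of the members ran from -0.16 without osteoarthritis 2 to 0.95 without control 2. Clec3b changed sign in limma-voom (-0.19), on log2(FPKM + 1) (-0.050) and on log2(FPKM + 0.1) (-0.068), and ran from -1.75 to 1.32 when libraries were left out. In those fits Cd55 ran from -1.80 to 0.073 and Pdpn from -1.04 to 1.44. Cd34, Thy1, Pdgfra, Pi16 and Dpp4 kept their sign under all 14 alternatives. The median of all genes was 0.27 with library size alone and 0.05 with upper quartile factors, and 0.42 without a filter. The cause was not tested. The number of libraries, 2 a group, limits the precision. Tcf21 had no count and could not be fitted.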

Other observations

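Genes that act with the members lay in several directions. Of 22 tested ligands and partners, 9 lay above and 5 below both controls, against 30.0% and 26.5% of all genes, with a median log2 fold change of 0.61. Pdgfa, a ligand of Pdgfra, had 41.3 and 34.7 CPM in the controls against 171 and 107 CPM in the osteoarthritis libraries (log2 fold change 1.87 ± 0.38, edgeR adjusted p = 0.0982). Clec1b, the platelet receptor for Pdpn, had 30.5 and 23.1 against 1.29 and 3.07 CPM (-3.62 ± 0.62), and C3, the complement protein whose convertase Cd55 dismantles, had 122 and 121 against 51.0 and 22.3 CPM (-1.73 ± 0.47). By edgeR's adjusted test 0 of the 22 were called, at an unadjusted p under 0.05 there were 2 higher and 3 lower, and DESeq2 called 1 higher and 3 lower.

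Relatives of the members lay in both directions as well. Clec3a, the cartilage relative of Clec3b, had 298 and 211 CPM in the controls against 13.2 and 6.09 CPM in the osteoarthritis libraries (-4.72 ± 0.56), while Clec3b itself lay on both sides of the controls. Glipr1 and Crispld2, which share the protein domain of Pi16, had log2 fold changes of -1.91 ± 0.31 and 1.90 ± 0.64. Of 17 tested relatives, 4 lay above and 5 below both controls, against 30.0% and 26.5% of all genes. The adjusted edgeR test called 0, at an unadjusted p under 0.05 there were 1 higher and 3 lower, and DESeq2 called 1 higher and 3 lower.

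Markers of chondrocytes, skeletal muscle and nerve were read as well. Of 10 chondrocyte genes, 5 lay below both controls and 0 above, against 26.5% and 30.0% of all genes. Chad had a log2 fold change of -4.69 ± 0.60, Hapln1 of -2.69 ± 0.44 and Col2a1 of -3.42 ± 1.25. Acan, Col11a1 and Sox9 had positive values, 1.36 ± 1.43, 1.77 ± 1.33 and 1.58 ± 0.999, and were below both controls in osteoarthritis 1 and above both in osteoarthritis 2. EdgeR's adjusted test called 0 of the 10, with 0 higher and 4 lower at an unadjusted p under 0.05 and in DESeq2. Skeletal muscle genes summed to 2376 CPM in control 1 and 130 CPM in control 2, against 347 and 462 CPM in the osteoarthritis libraries, and Mylpf, Ckm and Myh2 had log2 fold changes of -2.96, -3.10 and 2.80. Nerve and Schwann cell genes summed to 256 and 305 CPM in the controls against 768 and 264 CPM in the osteoarthritis libraries, with Ncam1, Prx and Mbp at 1.34, 0.72 and 1.29. None of the muscle or nerve genes was called by edgeR's adjusted test or had an unadjusted p under 0.05 (0 in each case), and DESeq2 called 1 of them, Mylpf, lower.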
